A study of Homo sapiens with 12 samples.

Results

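The BCL2 family decides whether mitochondria release the factors that start cell death, and 10 of its genes were followed here in pancreatic cancer cells: PMAIP1, BBC3, BCL2L11, BID, BAD, BAX, BAK1, BCL2L1, BCL2L2 and MCL1. The genes were chosen by symbol, and all 10 were among the 15090 genes of the deposited table. The cells were MIA PaCa-2, an established human pancreatic carcinoma line labelled as wild type, kept in glutamine-free RPMI 1640 to which L-glutamine was added back. The 4 groups of 3 libraries, taken at 48 h, were 2 mM glutamine without gemcitabine, 2 mM with 0.5 µM gemcitabine, 40 mM without gemcitabine and 40 mM with 0.5 µM gemcitabine. Gemcitabine is a nucleoside analogue that blocks DNA synthesis and is a standard drug for this cancer, and the series title concerns high-dose glutamine and chemosensitivity. All groups thus share 1 cell line, 1 base medium and 1 time point. The series design calls the libraries of a group biological triplicates.

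The proteins of this family fall into 3 roles. BAX and BAK1 are the effectors, which open pores in the outer mitochondrial membrane, and the protective members BCL2L1 (BCL-XL), BCL2L2 (BCL-w) and MCL1 hold them in check. The BH3-only members PMAIP1 (NOXA), BBC3 (PUMA), BCL2L11 (BIM), BID and BAD sense damage or loss of survival signals and bind the protective members, and some also activate the effectors directly. Much of this regulation acts on the proteins, which RNA levels do not measure.

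Each library held 21723094 to 32811746 reads in listed genes, and the fewest reads of any of the 10 genes in any library was 153, for PMAIP1. Levels are given in reads per 1000000 (RPM). Of the markers of the line, KRT8 (1355 to 2357 RPM), KRT18, KRT19 and VIM were present in every library, whereas EPCAM and CDH1 were not among the listed genes. PTPRC, PECAM1, PRSS1, CPA1, INS and GCG, which mark leukocytes, endothelium, acinar and islet cells, were not listed either. Of the 2 fibroblast collagen genes, COL1A1 lay at 0.423 to 1.61 RPM and COL1A2 at 582 to 897 RPM. KRT8 and COL1A2 differed between groups: untreated and treated at 2 mM and then at 40 mM, KRT8 was at 1682, 2318, 1362 and 1699 RPM and COL1A2 at 757, 606, 885 and 678 RPM (means of 3). Their part in the results on the BCL2 family was not tested. These are bulk values, so fewer cells expressing a gene and less RNA per cell cannot be told apart.

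Between genes, levels were compared per kilobase of exon (RPM per kb, with exon lengths from GENCODE v29). In 2 mM glutamine without drug, MCL1 was highest at 61.4 ± 2.57 RPM per kb (SD, n = 3, as for all such values), followed by BAX at 43.1 ± 1.19. BAK1 at 24.1 ± 1.22 and BCL2L1 at 24.1 ± 0.733 did not differ beyond their spread, and BID followed at 13.5 ± 0.594. BCL2L2, at 9.26 ± 0.555, and BAD, at 7.44 ± 0.589, came next. The lowest 3 were BBC3 at 5.0 ± 0.289, BCL2L11 at 4.94 ± 0.484 and PMAIP1 at 3.05 ± 0.138, of which BBC3 and BCL2L11 did not differ beyond their spread. MCL1, BAX and BID held ranks 1, 2 and 5 in each of the 4 groups. PMAIP1 ranked 10 without drug at both glutamine levels (3.49 ± 0.0665 RPM per kb at 40 mM). With drug it ranked 7 at 2 mM (8.65 ± 0.47) and 6 at 40 mM, where its 10.3 ± 0.545 lay above the 8.92 ± 0.275 of BCL2L2. The difference between the highest and lowest group mean was 1.62 on the log2 scale for PMAIP1, 0.56 for BCL2L1, 0.48 for BAD, 0.35 for BCL2L2 and 0.29 for BAK1, and 0.07 to 0.18 for the other 5.

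**Figure D1:**
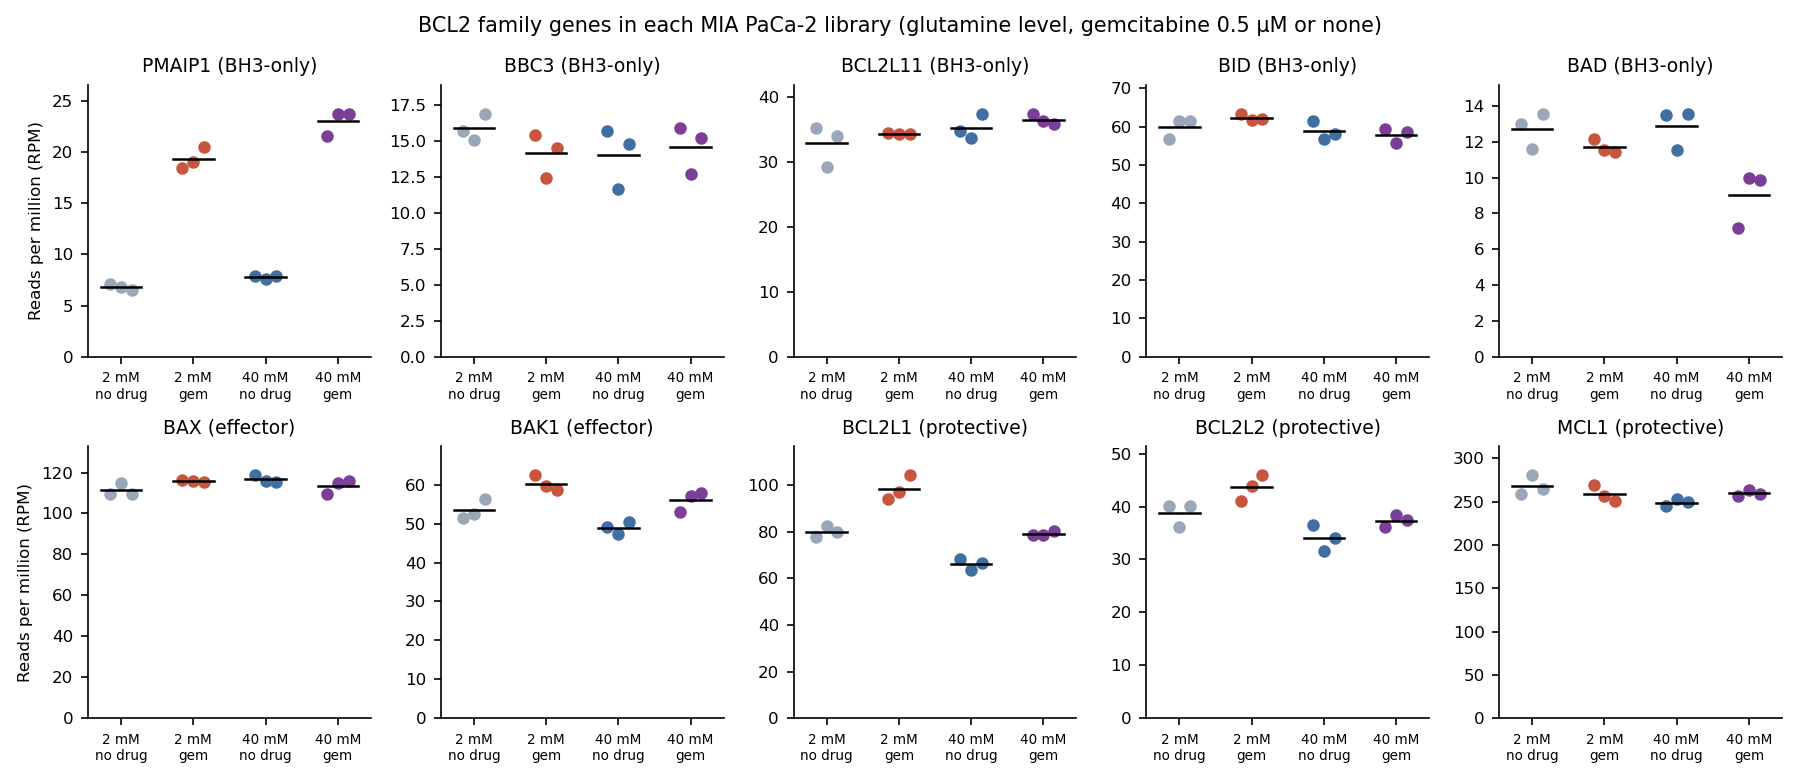
Level of each of the 10 genes in every library, in reads per 1000000 (RPM, linear axis from 0), for the 4 groups of glutamine and gemcitabine (gem). Points are libraries and lines are group means. All 6 drug-treated libraries of PMAIP1 lie between 18.5 and 23.7 RPM, above the 6.48 to 7.92 RPM of the 6 untreated ones, and BCL2L1 is lowest at 40 mM glutamine without drug.

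With gemcitabine 4 of the 10 genes passed the test at each glutamine level, and PMAIP1 changed most. At 2 mM glutamine PMAIP1, BCL2L1, BAK1 and BCL2L2 rose and no member fell. At 40 mM glutamine PMAIP1, BCL2L1 and BAK1 rose and BAD fell. Thus 1 BH3-only gene, 1 effector and the protective BCL2L1 rose at both glutamine levels, while BBC3, BCL2L11, BID, BAX and MCL1 did not pass the test at either. The test was limma on the log2 values with Benjamini-Hochberg adjustment over 12789 genes. At 2 mM the 4 of 10 called members stand against 34.6% of all tested genes called (17.5% higher and 17.1% lower), and the libraries of 6 members did not overlap between groups, against 46.1% of all genes. At 40 mM the 4 of 10 compare with 30.3% of all genes (14.1% higher and 16.2% lower), and 5 members did not overlap, against 40.6%. The called shares were thus near the background at both glutamine levels. Of all genes called at 40 mM 46.6% were higher, or 62.9% with equal library totals. The median log2 fold change over the 10 genes was 0.06 at both levels, against −0.001 and −0.005 over all tested genes. The median size of change was 0.13 and 0.09 on the log2 scale, against 0.13 and 0.12 over all tested genes.

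**Figure D2:**
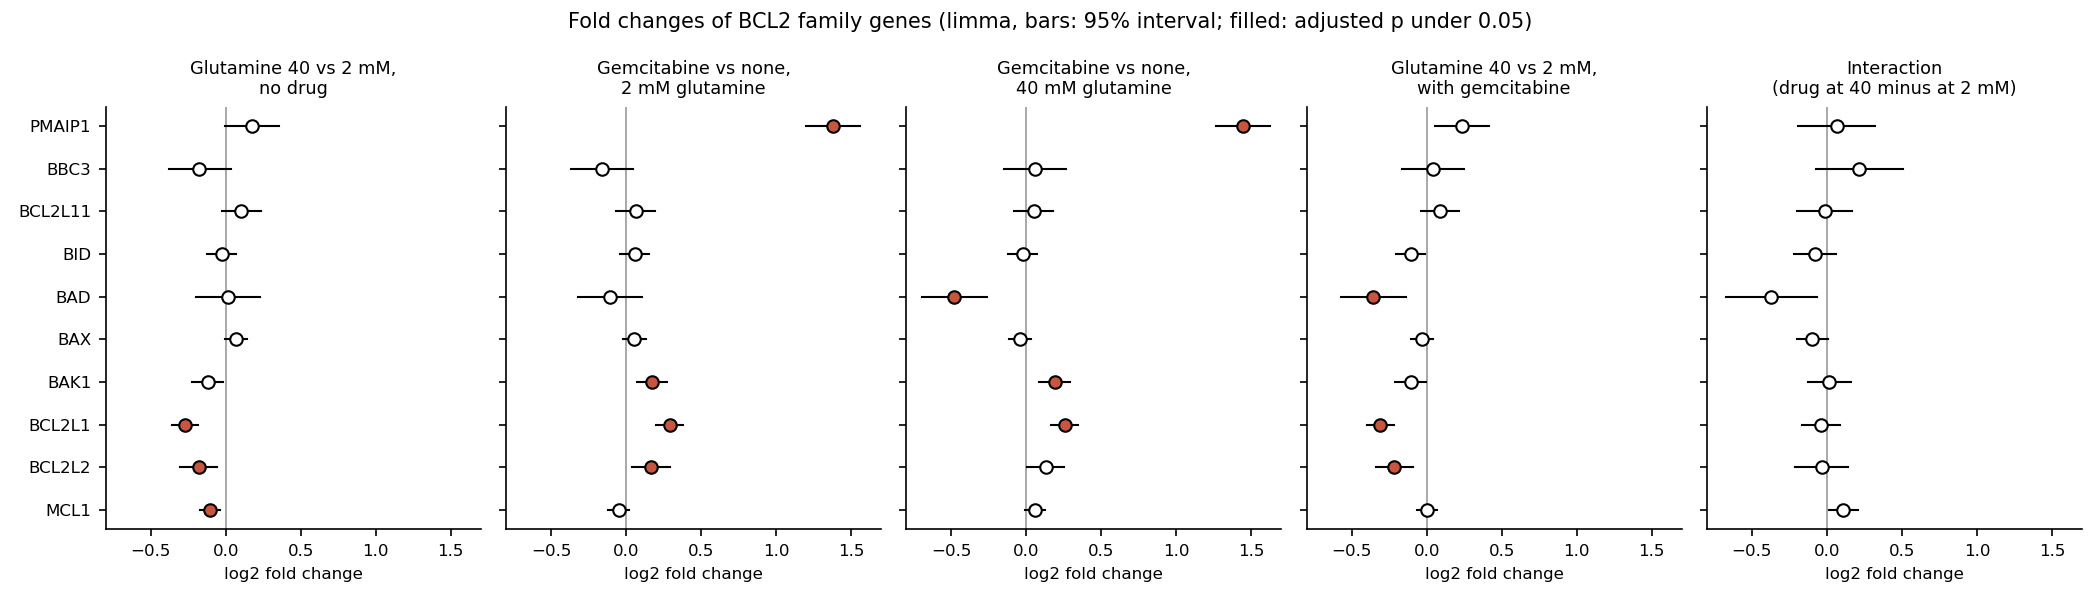
Log2 fold change of each gene in the 5 comparisons, with 95% intervals from limma; filled points have an adjusted p under 0.05. PMAIP1 stands at 1.38 and 1.44 in the gemcitabine comparisons, BAD is at −0.48 with drug at 40 mM, and the protective genes BCL2L1 and BCL2L2 lie below 0 in both glutamine comparisons.

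PMAIP1 encodes NOXA, a BH3-only protein that binds chiefly MCL1. At 2 mM glutamine its level was 7.10, 6.85 and 6.48 RPM in the untreated libraries and 18.5, 19.1 and 20.5 RPM with gemcitabine. At 40 mM it was 7.86, 7.64 and 7.92 RPM without and 21.6, 23.7 and 23.7 RPM with the drug. Every treated library thus lay far above every untreated one, and with drug and without it each library at 40 mM lay above each at 2 mM. The ratio of mean RPM was 2.84 at 2 mM and 2.94 at 40 mM. On the log2(RPM + 1) scale, which understates changes of low genes, PMAIP1 rose by 1.38 ± 0.0884 (SE, limma adjusted p = 2.07e-14) at 2 mM and by 1.44 ± 0.0884 (adjusted p = 7.22e-15) at 40 mM. Among 12789 tested genes it ranked 9 from the highest fold change at 2 mM and 12 at 40 mM.

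The gene lies at chr18:59899948-59904306 on the forward strand (GRCh38, GENCODE v29). Since its RNA moved most, the stretch just upstream of it is shown, from 250 to 49 bases before the start of transcription that RefSeq gives (GRCh38.p14, chr18:59899746-59899947, forward strand). The capitals mark ACGTCA, the reverse strand of TGACGT, the core letters of a cyclic AMP response element, to which CREB and ATF factors bind.

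PMAIP1: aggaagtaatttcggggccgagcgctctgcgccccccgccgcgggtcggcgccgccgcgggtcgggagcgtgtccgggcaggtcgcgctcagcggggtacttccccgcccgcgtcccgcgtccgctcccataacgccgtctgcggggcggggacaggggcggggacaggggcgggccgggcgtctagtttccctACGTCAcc

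The first of these 6 letters is 56 bases before the start. Of 35116 RefSeq windows of 250 bases before a start, 7.1% hold TGACGT on either strand, so its presence in 1 window is a description only. The letters GAAA, any 2 bases and GAAA again, a form of the interferon-stimulated response element searched on both strands, occur in 3.02% of all windows and in none of the 14 windows found for 8 of the 10 genes. At such a share none in 14 windows, some of them overlapping, is likely, so this absence too is a description only. Other forms of the element and bases outside the windows were not searched. MCL1 and BCL2L2 had no window.

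Over the 12 libraries, the 5 genes whose log2 values were most correlated with PMAIP1 were IFIT3 (Pearson r = 0.997), ISG15 (0.996), OASL (0.995), IFIT2 (0.994) and TACC3 (0.992). The first 4 are known as interferon-stimulated genes, and TACC3 is a protein of the mitotic spindle. The 12 points share their libraries and their 4 conditions. IFIT3 went from 49.8 ± 3.13 to 149 ± 1.45 RPM with drug at 2 mM and from 61.2 ± 1.9 to 183 ± 5.05 RPM at 40 mM. TACC3 followed the same order of groups with smaller steps, from 84.8 ± 2.15 to 117 ± 2.31 RPM and from 88.1 ± 2.55 to 125 ± 1.75 RPM.

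**Figure D3:**
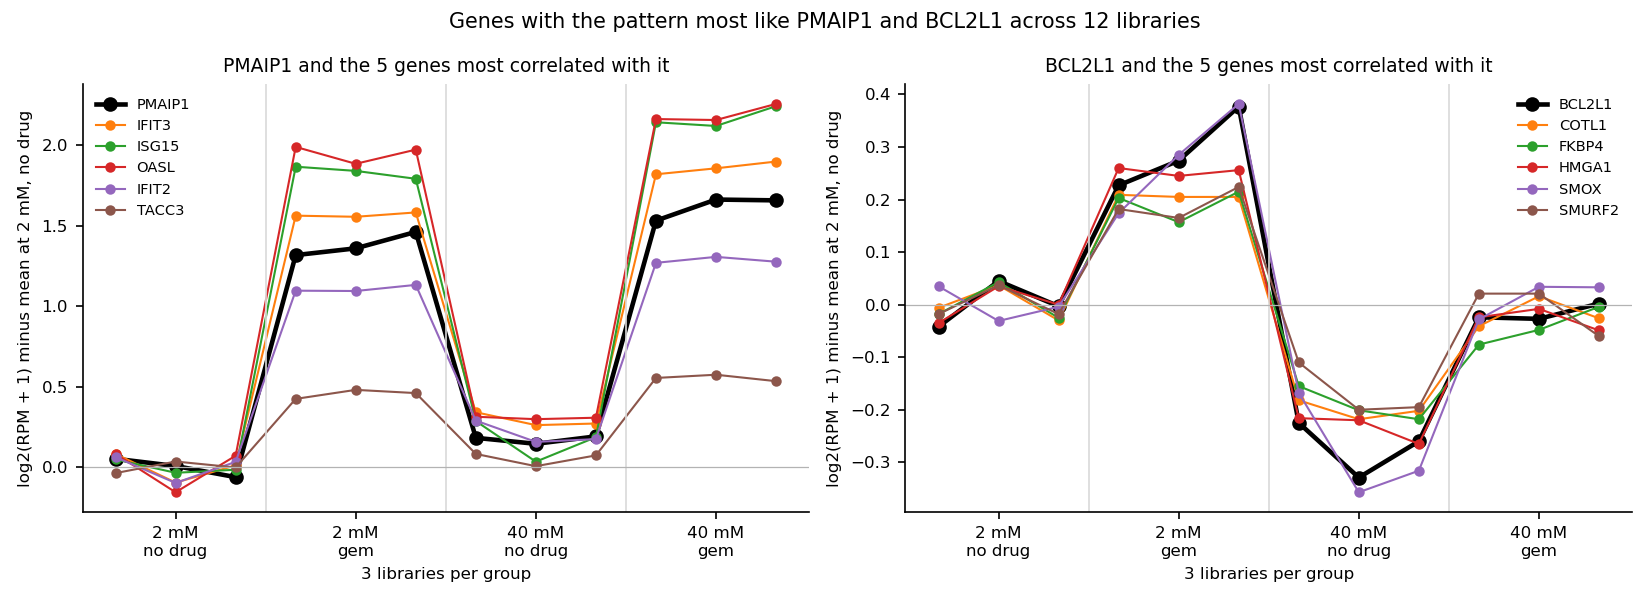
Log2(RPM + 1) of PMAIP1 (left) and BCL2L1 (right) with the 5 genes most correlated with each, in the 12 libraries, as differences from the mean of the 3 untreated libraries at 2 mM glutamine. Lines only join libraries of a gene, and replicates have no order. PMAIP1 and its 5 genes are high in the 6 drug-treated libraries, and BCL2L1 and its 5 genes are lowest at 40 mM glutamine without drug.

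BAD, a BH3-only gene whose protein is inactivated by survival kinases, moved the other way and was called with drug at 40 mM glutamine. Its level was 13.0, 11.6 and 13.6 RPM at 2 mM without drug and 12.2, 11.5 and 11.4 RPM with it. At 40 mM it was 13.5, 11.5 and 13.6 RPM without and 7.19, 9.98 and 9.87 RPM with the drug. The 3 libraries with drug at 40 mM were thus the lowest of all 12, and the first of them stood below the other two. BAD fell by 0.48 on the log2 scale (SE 0.106, limma adjusted p = 6.28e-04) with drug at 40 mM, a ratio of mean RPM of 0.701, and without that lowest library the fold change was −0.34 (adjusted p = 0.0152). At 2 mM the fold change was −0.11 ± 0.106 (adjusted p = 0.465). The difference between these responses was −0.37 ± 0.15 (95% interval −0.68 to −0.07) and did not pass the adjusted test (unadjusted p = 0.0181, limma adjusted p = 0.21); without the lowest library it was −0.23 (adjusted p = 0.497).

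BAD (chr11:64269830-64284704, reverse strand, GRCh38) and GPR137 on the opposite strand share 404 exonic bases in GENCODE v29. The sources used here do not say whether counting used strand, so reads in those bases may count for either gene. GPR137 itself was at 36.7 RPM without and 32.7 RPM with drug at 40 mM (log2 fold change −0.16 ± 0.0671, limma adjusted p = 0.0679). The window before BAD also holds TGACGT, 54 bases before a RefSeq start (GRCh38.p14, chr11:64284741-64284770, reverse strand, 30 bases shown, with the motif in capitals).

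BAD: gacctacccgagTGACGTtccgagaggtga

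PMAIP1 and BAD, which went in opposite directions with drug at 40 mM, thus both hold these letters near their start, and 7.1% of all windows do.

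The other 3 BH3-only genes did not pass the test in any comparison. BBC3 encodes PUMA, which DNA damage can induce. It was at 15.7, 15.1 and 16.9 RPM at 2 mM without drug and 15.5, 12.5 and 14.5 RPM with it, and at 15.7, 11.7 and 14.8 against 15.9, 12.7 and 15.2 RPM at 40 mM. Its groups overlapped in every comparison, and replicate 2 was lowest in all 4 groups. The log2 fold change with drug was −0.16 ± 0.101 at 2 mM and 0.06 ± 0.101 at 40 mM (limma adjusted p = 0.23 and 0.727). BCL2L11, which encodes the activator BIM, lay between 29.3 and 37.5 RPM in all 12 libraries. Its fold changes with drug were 0.07 ± 0.0634 and 0.05 ± 0.0634 on the log2 scale. BID, which carries the signal of death receptors to mitochondria once a caspase has cut it, lay between 55.6 and 63.4 RPM, with log2 fold changes of 0.06 ± 0.0477 and −0.02 ± 0.0477. For both genes the 95% intervals with drug ran from −0.12 at the lowest to 0.19 at the highest.

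Of the 2 effectors, BAK1 rose with gemcitabine and BAX did not pass the test. BAK1 was at 51.3, 52.4 and 56.4 RPM at 2 mM without drug and 62.4, 59.7 and 58.7 RPM with it. At 40 mM it was 49.2, 47.3 and 50.5 RPM without and 53.0, 57.1 and 57.8 RPM with the drug. Treated and untreated libraries did not overlap at either glutamine level. The rise was 0.17 ± 0.0505 at 2 mM and 0.19 ± 0.0505 at 40 mM on the log2 scale (limma adjusted p = 0.00745 and 0.00408), or 1.13 and 1.14 times the mean RPM. BAX stayed between 109.5 and 118.7 RPM in all 12 libraries, and its groups differed by at most 0.07 on the log2 scale. The window before BAX held the E-box letters CACGTG, which bind MYC and related factors, 4 times, as did 5 of 35116 windows (0.0142%), whereas 6.34% held them at least 1 time; this feature was singled out after the windows had been searched.

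Among the protective genes BCL2L1 rose with the drug at both glutamine levels. It was at 77.7, 82.5 and 79.9 RPM at 2 mM without drug and 93.8, 97.0 and 104.2 RPM with it. At 40 mM it was 68.3, 63.5 and 66.7 RPM without and 78.7, 78.5 and 80.1 RPM with the drug. No treated library overlapped an untreated one at the same glutamine level, and the treated libraries at 40 mM lay in the range of the untreated ones at 2 mM. BCL2L1 rose by 0.29 ± 0.044 at 2 mM and by 0.26 ± 0.044 at 40 mM on the log2 scale (limma adjusted p = 2.75e-06 and 2.55e-05). ABALON, on the opposite strand within the same locus, shares 1424 exonic bases with BCL2L1 but reached at most 2.65 RPM.

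BCL2L2 passed the test with drug at 2 mM and not at 40 mM. It was at 40.2, 36.1 and 40.1 RPM at 2 mM without drug and 41.0, 43.9 and 45.9 RPM with it, a log2 fold change of 0.17 ± 0.0612 (limma adjusted p = 0.0343). Leaving out the lowest untreated library gave 0.12 (adjusted p = 0.19), and leaving out treated replicate 2 or 3 gave 0.16 or 0.13 (adjusted p = 0.0901 and 0.174). The call thus did not hold under these omissions, in which the SE also rose, to 0.0662, 0.0705 and 0.0694. At 40 mM it was 36.6, 31.6 and 34.1 RPM without and 36.2, 38.5 and 37.4 RPM with the drug, a log2 fold change of 0.13 ± 0.0612 (adjusted p = 0.112). The groups overlapped at 40 mM. MCL1, whose protein is short-lived and is the main partner of NOXA, lay between 245 and 281 RPM in all 12 libraries. Its log2 fold change with drug was −0.05 ± 0.0331 at 2 mM and 0.06 ± 0.0331 at 40 mM (limma adjusted p = 0.258 and 0.181). The rise of PMAIP1 thus had no counterpart of its size in the RNA of MCL1, whose 95% intervals ran from −0.12 to 0.02 and from −0.01 to 0.13. With equal library totals in place of the deposited scaling, BCL2L2 (0.17, adjusted p = 0.0358) and MCL1 (0.10, adjusted p = 0.0167) passed with drug at 40 mM, as did BCL2L2 without untreated replicate 1 at 40 mM (0.18, adjusted p = 0.0413) and MCL1 after quantile normalization (0.09, adjusted p = 0.0301).

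Whether the response to gemcitabine differed between 40 and 2 mM glutamine was tested as an interaction. No member passed (0 of 10, limma), against 2.2% of all tested genes (0.727% positive and 1.47% negative). Of all genes called for the interaction 33.1% were positive, or 58.9% with equal library totals and 54.7% after quantile normalization. At an unadjusted p under 0.05 there were 2 members, BAD and MCL1, and voom on recovered reads also called 0. The difference of responses was 0.06 ± 0.125 for PMAIP1 (95% interval −0.19 to 0.32), −0.04 ± 0.0623 for BCL2L1 (−0.16 to 0.09) and 0.02 ± 0.0714 for BAK1 (−0.13 to 0.16). For MCL1 it was 0.11 ± 0.0468 (0.01 to 0.21, limma adjusted p = 0.244). BBC3 had the widest interval of the positive differences, from −0.08 to 0.51 around 0.22 ± 0.143. The 10 differences had a median of −0.03, against −0.01 over all tested genes.

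**Figure D4:**
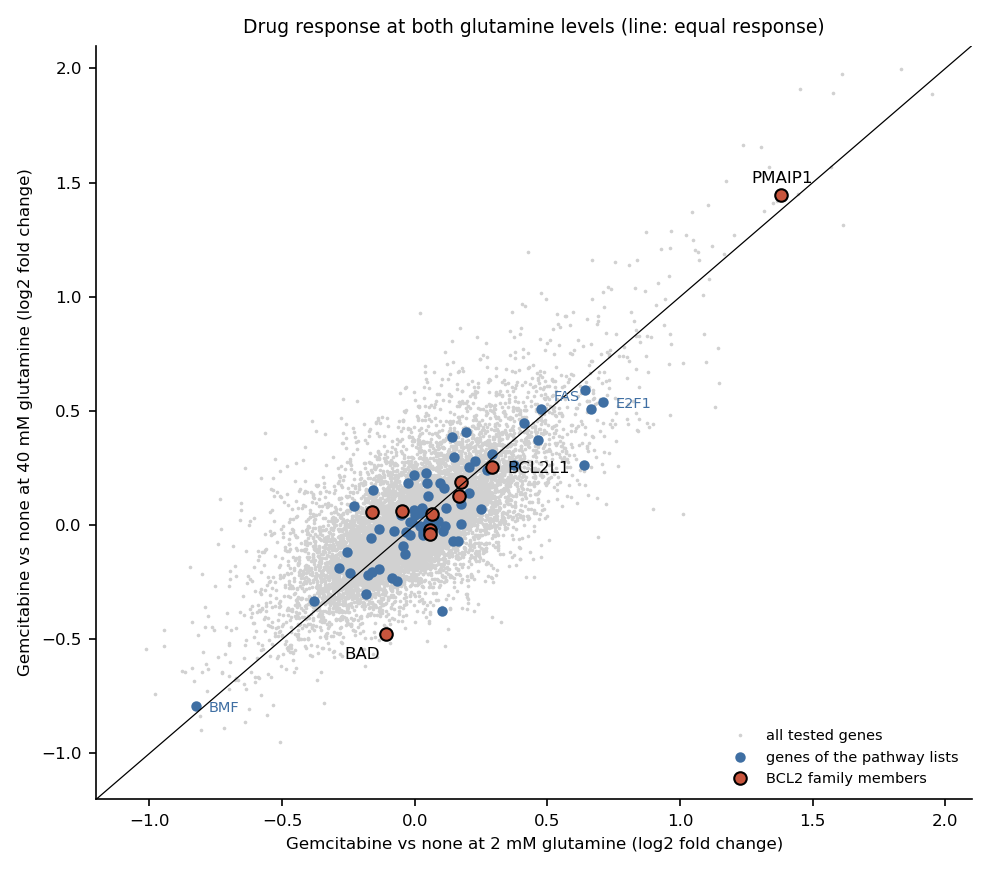
Log2 fold change with gemcitabine at 40 mM glutamine (vertical) against that at 2 mM (horizontal) for all 12789 tested genes (grey), the genes of the 6 pathway lists (blue) and the 10 BCL2 family genes (red). The line marks equal responses. PMAIP1 lies at 1.38 and 1.44 near the line, and BAD at −0.11 and −0.48 below it.

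Without drug, glutamine at 40 mM went with lower RNA of all 3 protective genes. MCL1, BCL2L1 and BCL2L2 fell, no member rose, and none of the 5 BH3-only genes or 2 effectors passed the test. Some uncalled genes had falls of like size on the log2 scale. BBC3 was at −0.175 ± 0.101 (limma adjusted p = 0.248), near BCL2L2 at −0.18. BAK1, at −0.12, lay below MCL1 at −0.11. BID was at −0.03, and PMAIP1, BCL2L11, BAX and BAD lay higher at 40 mM. The 3 of 10 called members stand against 17.5% of all tested genes called (9.12% lower and 8.41% higher), and 5 members did not overlap between groups, against 31.1% of all genes. Of all called genes 48.0% were higher, or 61.2% with equal library totals. The glutamine and drug comparisons share libraries, so the values of a gene in them are not independent.

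BCL2L1 was lower in each library at 40 mM than in any at 2 mM, at 63.5 to 68.3 against 77.7 to 82.5 RPM. It fell by 0.27 ± 0.044 on the log2 scale (limma adjusted p = 3.2e-05), a ratio of mean RPM of 0.827. MCL1 went from 258.9, 280.7 and 265.2 to 245.2, 252.7 and 249.4 RPM, without overlap. It fell by 0.11 ± 0.0331 on the log2 scale (adjusted p = 0.0233), with equal library totals by 0.09 (adjusted p = 0.064), and without replicate 2 at 2 mM, its highest library, by 0.07 (adjusted p = 0.174). Without replicate 1 or 3 at 40 mM the fold change was −0.09 and −0.11 (adjusted p = 0.0728 and 0.0587), and after quantile normalization −0.08 (adjusted p = 0.079). BCL2L2, at 36.1 to 40.2 RPM in 2 mM and 31.6 to 36.6 RPM in 40 mM, overlapped between groups. It fell by 0.18 ± 0.0612 on the log2 scale (adjusted p = 0.0374), and the call was lost with equal library totals (−0.16, adjusted p = 0.0688) or without its lowest library at 40 mM (−0.13, adjusted p = 0.189). Without replicate 3 at 40 mM, or with only these 2 groups in the fit, the fold change stayed at −0.18 while the adjusted p rose to 0.0817 and 0.069. Without replicate 1 or 3 at 2 mM it was −0.16 in each case (−0.155 and −0.156 unrounded, adjusted p = 0.133 and 0.124). With equal library totals only BCL2L1 of the 10 genes was called, and the same holds without replicate 3 at 40 mM.

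Of the other genes, PMAIP1 and BAX lay higher and BAK1 lower at 40 mM without overlap, and none passed the adjusted test. PMAIP1 differed by 0.17 ± 0.0884 on the log2 scale (limma adjusted p = 0.18), BAX by 0.07 ± 0.0368 (0.223) and BAK1 by −0.12 ± 0.0505 (0.0941). BAD overlapped between the groups, with a log2 difference of 0.02 ± 0.106 (95% interval −0.20 to 0.23). For genes that share exons, PPP1R3E, opposite to BCL2L2 over 206 exonic bases, was higher at 40 mM (0.36, adjusted p = 0.0294). MIR4435-2HG, opposite to BCL2L11 over 727 bases, was lower (−0.37, adjusted p = 6.52e-05). BCL2L2-PABPN1, on the same strand as BCL2L2, shares 813 exonic bases with it and was not among the listed genes. The sources used here do not say how reads in those bases were counted, so the BCL2L2 values may include or lack them.

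With gemcitabine present, 40 mM glutamine went with lower BCL2L1, BCL2L2 and BAD. These 3 of 10 members fell and none rose, against 21.6% of all tested genes called (13.0% lower and 8.62% higher), and 7 members did not overlap, against 37.4%. Of all called genes 39.9% were higher, or 68.2% with equal library totals and 50.1% after quantile normalization. BCL2L1 fell from 93.8 to 104.2 RPM over its libraries at 2 mM to 78.5 to 80.1 RPM at 40 mM, by 0.31 ± 0.044 on the log2 scale (limma adjusted p = 3.56e-06). BCL2L2 fell by 0.22 ± 0.0612 (adjusted p = 0.00948), or by 0.16 with equal library totals (adjusted p = 0.053) and by 0.18 without treated replicate 3 at 2 mM (adjusted p = 0.073).

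BAD fell by 0.36 ± 0.106 on the log2 scale (limma adjusted p = 0.0135), from 11.4 to 12.2 RPM at 2 mM to 7.19 to 9.98 RPM at 40 mM. Without its lowest library, replicate 1 at 40 mM with drug, the fold change was −0.22 and did not pass (adjusted p = 0.166), nor did it without replicate 1 at 2 mM with drug (−0.33, adjusted p = 0.0574). PMAIP1 lay higher at 40 mM in each library and was just short of the threshold, at 0.24 ± 0.0884 on the log2 scale (adjusted p = 0.051). It passed under 4 other settings, among them voom on recovered reads (0.24, adjusted p = 0.0162) and equal library totals (0.29, adjusted p = 0.016), and when 1 of 3 untreated libraries was left out. MCL1, lower at 40 mM without drug, did not differ detectably with it, at 259 ± 9.4 and 260 ± 3.46 RPM (log2 difference 0.004 ± 0.0331, 95% interval −0.06 to 0.07, limma adjusted p = 0.952). BAK1 (−0.11 ± 0.0505) and BID (−0.11 ± 0.0477) lay lower without overlap and did not pass the adjusted test.

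Among the members themselves, BCL2L1 and BCL2L2 varied together over the 12 libraries (Pearson r = 0.902), as did BAK1 with BCL2L1 (0.859) and with BCL2L2 (0.78). PMAIP1 correlated with BAK1 at 0.693 and with BAD at −0.683. These describe 12 points that share 4 conditions. The genes most like BCL2L1 were COTL1 (r = 0.978), FKBP4 (0.977), HMGA1 (0.976), SMOX (0.974) and SMURF2 (0.974). HMGA1, an architectural chromatin protein, was at 1312 ± 32, 1564 ± 8.38, 1115 ± 21.2 and 1287 ± 18.5 RPM in the untreated and treated groups at 2 mM and then at 40 mM. BCL2L1 had the same order of groups, at 80.0 ± 2.43, 98.3 ± 5.35, 66.1 ± 2.44 and 79.1 ± 0.907 RPM, with the untreated group at 2 mM and the treated group at 40 mM within their spread of each other.

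Of 14 further BCL2 family genes, 8 were tested. With drug at 2 mM 1 rose and 3 fell, and at 40 mM 2 rose and 2 fell, or 4 of 8 at each level against 34.6% and 30.3% of all tested genes. The BH3-only gene BIK rose from 1.88 to 3.50 RPM at 2 mM and from 1.90 to 3.40 RPM at 40 mM (log2 fold change 0.64 ± 0.143 and 0.59 ± 0.143). BMF, another BH3-only gene, fell from 2.66 to 1.08 RPM and from 2.42 to 0.978 RPM (−0.83 ± 0.154 and −0.79 ± 0.154, or −1.29 and −1.30 with voom on recovered reads). With PMAIP1 up and BAD down, BH3-only genes went in both directions with drug at 40 mM. BIK and BMF are a description only, since they reached at most 4.145 and 2.742 RPM in any library. Both are among the 4 of 8 called at each level, so that share is a description too. BMF met the filter of 1 RPM through its untreated libraries (2.35 to 2.742 RPM) and had 21 to 46 reads in the treated ones. BNIP3L, a mitophagy receptor, rose with glutamine alone (0.21 ± 0.0428) and fell with drug at both levels (−0.18 and −0.30). BCL2, the founding member, was at 4.0 to 4.3 RPM in each group mean and passed no test; it is named after its values were seen.

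Of 12 tested genes of the mitochondrial gate and the apoptosome, 3 fell with glutamine alone and 4 with glutamine under drug, against 9.12% and 13.0% of all tested genes. None rose, but with glutamine alone 1 did at equal library totals and at most 1 when a library was left out. CYCS, cytochrome c itself, fell by 0.13 ± 0.0328 and 0.20 ± 0.0328 on the log2 scale, and the channel genes VDAC1 (−0.16 and −0.22) and VDAC2 (−0.13 and −0.17) fell as well, with −0.12 and −0.10 under drug after quantile normalization. With drug 2 rose at 2 mM, and 1 rose and 2 fell at 40 mM, with CYCS up at both (0.20 and 0.14), so that 2 and 3 of 12 were called, against 34.6% and 30.3% of all tested genes. The other riser at 2 mM, the channel gene VDAC3 (0.09 ± 0.0345), was lost under 8 settings, 6 of them the omission of 1 library. At 40 mM ENDOG, a mitochondrial nuclease, was lost without untreated replicate 1 or 3 (−0.25 and −0.33, adjusted p = 0.119 and 0.0611), and AIFM1 with equal library totals (−0.09, adjusted p = 0.0619). Among 13 caspases and caspase inhibitors, 6 rose and 1 fell with drug at 2 mM, and 3 rose and 1 fell at 40 mM. These are 7 and 4 of 13, against 34.6% and 30.3% of all tested genes, and without replicate 3 at 40 mM with drug 2 of 13 were called at 40 mM. The inhibitor gene BIRC5, survivin, rose at both (0.29 ± 0.0331 and 0.31 ± 0.0331). BIRC6, a large ubiquitin ligase that restrains caspases, fell by 0.24 and 0.21, and neither call held with robust moderation, nor without replicate 1 at 2 mM without drug (−0.13 at 2 mM, adjusted p = 0.0729) or replicate 3 at 40 mM with drug (−0.17 at 40 mM, adjusted p = 0.0715). With glutamine alone 2 of these 13 rose and 3 fell, against 17.5% of all genes called, and under drug 1 fell, against 21.6%. The 5 calls with glutamine alone became 2 without replicate 2 at 2 mM and 3 without replicate 3 at 2 mM or replicate 2 at 40 mM. DFFA, the inhibitor of the caspase-activated nuclease, fell by 0.19 and 0.26 in those comparisons.

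Of 10 genes of the death receptor pathway, which reaches mitochondria through BID, 3 rose and 2 fell with drug at 2 mM and 4 rose and 1 fell at 40 mM, which is 5 of 10 at each level against 34.6% and 30.3% of all tested genes. The receptor genes FAS (0.48 ± 0.11 and 0.51 ± 0.11) and TNFRSF10A (0.47 ± 0.0718 and 0.37 ± 0.0718) rose at both levels, and TNFRSF1A fell (−0.13 and −0.19). With glutamine 2 rose and 2 fell without drug, against 17.5% of all genes called, and 1 rose and 1 fell with it, against 21.6%. Without replicate 3 at 2 mM or replicate 3 at 40 mM, both untreated, 1 gene was called without drug in place of 4. The riser under drug, TNFSF10, which encodes the ligand TRAIL (0.45 ± 0.154), was lost without treated replicate 1 or 2 at either glutamine level, at 0.34 to 0.46 (0.336 to 0.455 unrounded, adjusted p = 0.072 to 0.187), and after quantile normalization (adjusted p = 0.0719). Among 7 tested ubiquitin ligases, conjugating enzymes and deubiquitinases that act on MCL1 or NOXA, 1 rose and 2 fell with drug at 2 mM and 1 rose and 1 fell at 40 mM, which is 3 and 2 of 7 against 34.6% and 30.3% of all tested genes. The riser at 2 mM, UBE2K, was lost without replicate 3 of either group (0.10 and 0.11, adjusted p = 0.053 and 0.057). BTRC, which fell, was lost without replicate 1 of either group or treated replicate 2 (−0.15 to −0.16, adjusted p = 0.072, 0.0577 and 0.0554). The riser at 40 mM, MARCHF5, was lost without treated replicate 2 (0.13, adjusted p = 0.0896). HUWE1, a ligase for MCL1, fell by 0.26 ± 0.0493 at 2 mM. With glutamine 1 of the 7 rose without drug, against 8.41% of all genes, and leaving out 1 library gave 0 to 2 risers: 0 without replicate 3 at 2 mM, and 2 without replicate 2 at 2 mM or replicate 1 or 3 at 40 mM. Under drug 2 rose, against 8.62%, USP13 (0.16) and FBXW7 (0.35), a deubiquitinase and a ligase subunit for MCL1. Without replicate 1 at 40 mM with drug FBXW7 was at 0.27 (adjusted p = 0.0678).

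Of 20 transcription factors known to act on BCL2 family genes, 7 rose and 2 fell with drug at 2 mM, and 7 rose and 3 fell at 40 mM. These are 9 and 10 of 20, against 34.6% and 30.3% of all tested genes. E2F1, which can induce BH3-only genes, rose from 49.9 to 82.2 RPM at 2 mM and from 57.1 to 83.3 RPM at 40 mM (0.71 ± 0.0501 and 0.54 ± 0.0501 on the log2 scale). TP63, a factor of epithelial development, fell by 0.38 ± 0.0338 and 0.33 ± 0.0338. The 2 genes that follow were outside the naming rule and are given after their values were seen. TP73 rose by 0.41 and 0.45 (limma adjusted p = 0.00258 and 0.00125), and the stress-induced ATF3 by 0.66 and 0.51 (adjusted p = 2.8e-05 and 8.54e-04). With glutamine 5 of the 20 rose and 3 fell both without and with drug, against 17.5% and 21.6% of all genes called. The 8 calls became 5 without replicate 3 at 40 mM in the first comparison and 4 without replicate 2 at 2 mM in the second. IRF1, which interferon induces, rose by 0.34 ± 0.0726 with glutamine alone. Under drug MYC (−0.28 ± 0.0311) and RELA (−0.25 ± 0.043) fell at 40 mM.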

How the data were processed

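RNA sequencing of 12 MIA PaCa-2 libraries was analysed from 1 table. The deposited log2 values are log2 of scaled reads per 1000000 plus a pseudocount of 1, as worked out from the values: in each library 100% of them gave whole reads within 0.05 read. The sources used here do not name the aligner, genome build, counting or strand. Values over listed genes sum to 971668 to 1021041 RPM per library, lowest in the 3 libraries with drug at 40 mM. Columns per the file headers match the sample titles. The 12789 of 15090 genes with at least 1 RPM in at least 3 libraries were fitted with limma 3.58.1 (R 4.3.3) as 4 group means, with a mean-variance trend, two-sided tests, Benjamini-Hochberg adjustment and a threshold of 0.05. Count models were replaced by voom on recovered reads, because the deposited values are logarithms. The fits were tested on simulated data with a common spread for all genes and few changed genes. That test does not show the error rate of the calls made here. Replicates differed by more than sampling noise (chi-square over degrees of freedom 2.42 to 5.87). Depth limits precision for counting error only. Named are all 10 members and, per pathway list and comparison, up to 3 called genes by smallest p, and for the 2 members with the largest range of group means the 5 most correlated genes. Some genes that the rule names are not reported here. Members and lists were chosen with earlier results of these data known. Exon lengths and overlaps come from GENCODE v29, and promoters, for 8 of 10 genes, from RefSeq (GRCh38.p14). Alternatives were other filters, pseudocounts, scalings, moderation, samples in the fit, a replicate block and leaving out each library.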

Additional observations from a re-analysis of the deposited data

Results flagged for a closer look

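No BCL2 family gene had a drug response that differed between glutamine levels by the adjusted test (limma interaction). Responses at 40 mM minus those at 2 mM are given on the log2 scale. Of the 20 transcription factors 3 passed, against 2.2% of all tested genes. Leaving out 1 library gave 0 to 3 factors. The count was 0 without untreated replicate 1 at 2 mM, treated replicate 3 at 2 mM or untreated replicate 3 at 40 mM. The difference was −0.18 ± 0.044 for MYC (SE, adjusted p = 0.0213), which went from 239 to 228 RPM with drug at 2 mM and from 222 to 188 RPM at 40 mM. For E2F2, an E2F factor of S phase entry, it was −0.38 ± 0.101 (−0.375 unrounded, adjusted p = 0.04): 19.1 to 30.2 RPM at 2 mM and 22.5 to 27.2 RPM at 40 mM. For JUN it was 0.18 ± 0.0499 (0.183 unrounded, adjusted p = 0.044): 174 to 179 RPM and 159 to 186 RPM. With equal library totals MYC (−0.15, adjusted p = 0.0754) and E2F2 (−0.34, adjusted p = 0.0752) no longer passed, nor did they after quantile normalization (−0.15 and −0.36, adjusted p = 0.096 and 0.0576). Where leaving out 1 library ended a call, the difference stayed about as large: −0.167 to −0.18 for MYC (adjusted p up to 0.0789, 5 of 12 omissions), −0.328 to −0.391 for E2F2 (up to 0.128, 9 of 12) and 0.158 to 0.192 for JUN (up to 0.135, 10 of 12).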

How the results depend on the processing

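Of 14 member values called over the 5 comparisons, 9 were called under all 21 alternatives: PMAIP1, BCL2L1 and BAK1 with drug at both glutamine levels, BCL2L1 with glutamine without and with drug, and BAD with drug at 40 mM. The other 5 were lost in at least 1 setting, and 3 uncalled values passed in at least 1, with the values given above. The cause was not tested. Of the 9 kept calls, BAK1 with drug at 2 mM came nearest to the threshold. Its limma adjusted p was 0.0496 without untreated replicate 1 at 2 mM. With glutamine alone the count of called members went from 3 to 1 with equal library totals, and leaving out 1 library gave 1 to 3. Leaving out 1 library gave 3 to 4 members with drug at 2 mM, 4 to 5 at 40 mM, 2 to 4 with glutamine under drug and 0 for the interaction. Deviations of same-numbered libraries from their group means correlated at −0.077 to 0.048 over 18 pairs, and 5 of 12 libraries were closest to their own number. No broad effect shared by same-numbered libraries was thus seen. The sample titles do not say whether such libraries were handled together, and these correlations cannot decide it. With the replicate block the counts of called members were 3, 4, 4, 3 and 0, as without it.

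Only uncalled values changed sign, 11 in all. With equal library totals these were BCL2L11 (interaction, 0.017), BID (drug at 40 mM, 0.018) and BAX (glutamine under drug, 0.023). Leaving out 1 library gave, with drug at 2 mM, −0.015 to 0.118 for BCL2L11, and with drug at 40 mM −0.064 to 0.145 for BBC3 and −0.047 to 0.009 for BID. It gave −0.044 to 0.086 for BAD with glutamine alone, and under drug −0.041 to 0.132 for BBC3 and −0.019 to 0.032 for MCL1. For the interaction it gave −0.068 to 0.065 for BCL2L11, −0.024 to 0.054 for BAK1, −0.071 to 0.005 for BCL2L1 and −0.088 to 0.014 for BCL2L2. The count of all genes called for the interaction, 281, was 155 to 366 without 1 library; it was 165 without replicate 1 at 2 mM and 165 without replicate 3 at 40 mM, both untreated, 155, 157 and 180 without treated replicates 1, 2 and 3 at 2 mM, and 174 without treated replicate 1 at 40 mM.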
